A study of Rattus norvegicus with 6 samples.

Results

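The cornified envelope genes described here are 9 genes picked by symbol out of the 18825 genes of the deposited table. They are the transglutaminase genes Tgm1, Tgm3 and Tgm5, the envelope precursors Flg, Ivl and Sprr1a, the corneodesmosome gene Cdsn and the secreted suprabasal proteins Sbsn and Krtdap. RNA came from dorsal skin wounds of male Sprague-Dawley rats, all diabetic after a diet rich in fat and sucrose and an injection of streptozotocin, which destroys the insulin-producing beta cells. All wounds were full-thickness. The control group of 3 libraries had untreated wounds, and the DST-MNs group of 3 libraries had wounds given microneedles that carry spheroids of dental pulp stem cells regulated with spermidine and TGF-β3. The labels give no age, dose or day of collection, and no group with microneedles lacking the cells. They name biological replicates and do not state that each is another animal, so p-values measure the spread between these libraries.

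The cornified envelope is the protein shell that replaces the plasma membrane of keratinocytes as they die at the skin surface. Transglutaminases cross-link precursors such as involucrin, loricrin and the small proline-rich proteins into it, while filaggrin packs keratin filaments inside the cell and is later broken down to the amino acids that hold water. Corneodesmosin glues the dead cells to each other until proteases cut it. In skin this programme belongs to the epidermis and, in part, to the hair follicle.

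Libraries held 12545206 to 13818548 read counts. The markers of the labelled tissue were present: collagen Col1a1 stood at 28000 to 41300 CPM (counts scaled to library size with TMM factors), and the basal epidermal keratins Krt5 and Krt14 were counted in every library. In controls 1, 2 and 3 their levels summed to 197, 11.1 and 149 CPM. In the treated libraries 1, 2 and 3 the sums were 3380, 199 and 1180 CPM. Control 2 held the least basal keratin RNA and DST-MNs 1 the most. In bulk tissue, fewer cells of a type and less RNA per cell cannot be told apart. Summed skeletal muscle genes were at 5080, 14.3 and 203 CPM in the controls and at 3310 to 4050 CPM in the treated libraries. Inner root sheath and hair shaft genes, 18 of them, summed to 1790 CPM in DST-MNs 1 and to 4.11 to 27.0 CPM in the other 5 libraries. The parts of epidermis, follicle and muscle in the results below were not tested.

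Most of the envelope genes stood higher in the treated wounds, and Tgm1 did not. In each treated library all 9 genes were detected, against 8, 6 and 7 in controls 1, 2 and 3. Their summed level was 65.5, 39.6 and 40.6 CPM in controls 1, 2 and 3 against 271, 70.5 and 110 CPM in DST-MNs 1, 2 and 3. No treated library overlapped the controls in that sum, but DST-MNs 2 was close to control 1. Of the 9 genes, 7 had enough counts to be tested, and 0 of them passed the quasi-likelihood test of edgeR after Benjamini-Hochberg adjustment over 14427 genes, where 0.776% of all genes passed and 0.658% were higher. At an unadjusted p below 0.05 there were 5 of the 7, all higher after treatment (Flg, Tgm3, Tgm5, Cdsn and Krtdap), where 16.7% of all genes had such a p and 9.80% were higher. DESeq2 called 4 (Flg, Tgm3, Tgm5 and Cdsn), all higher, where it called 7.06% of all genes in either direction and 4.34% higher. The call was 0 with limma-voom, which called 0.658% of all genes, and 1 (Flg) with a term for the replicate number, where 0.853% of all genes passed. With 1 library left out in turn, 0 of the envelope genes tested passed each time. All 9 were tested, except without DST-MNs 1 or DST-MNs 3, where 7 were. Of all genes, 2.74%, 0.231% and 0.360% passed without controls 1, 2 and 3. Without DST-MNs 1, 2 and 3, the shares were 0.158%, 0.232% and 0.0960%. A gene that is near 0 in the controls enters the test through the treated libraries, so these shares describe the tested genes and not the 9. Among the 7 tested, the treated libraries lay wholly above the controls for 3 genes, Flg, Tgm5 and Cdsn, where 12.9% of all tested genes did so. The same held for Ivl and Sprr1a, which had too few counts to be tested and have no such share beside them. For Tgm1, Tgm3, Sbsn and Krtdap the groups overlapped.

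**Figure D1:**
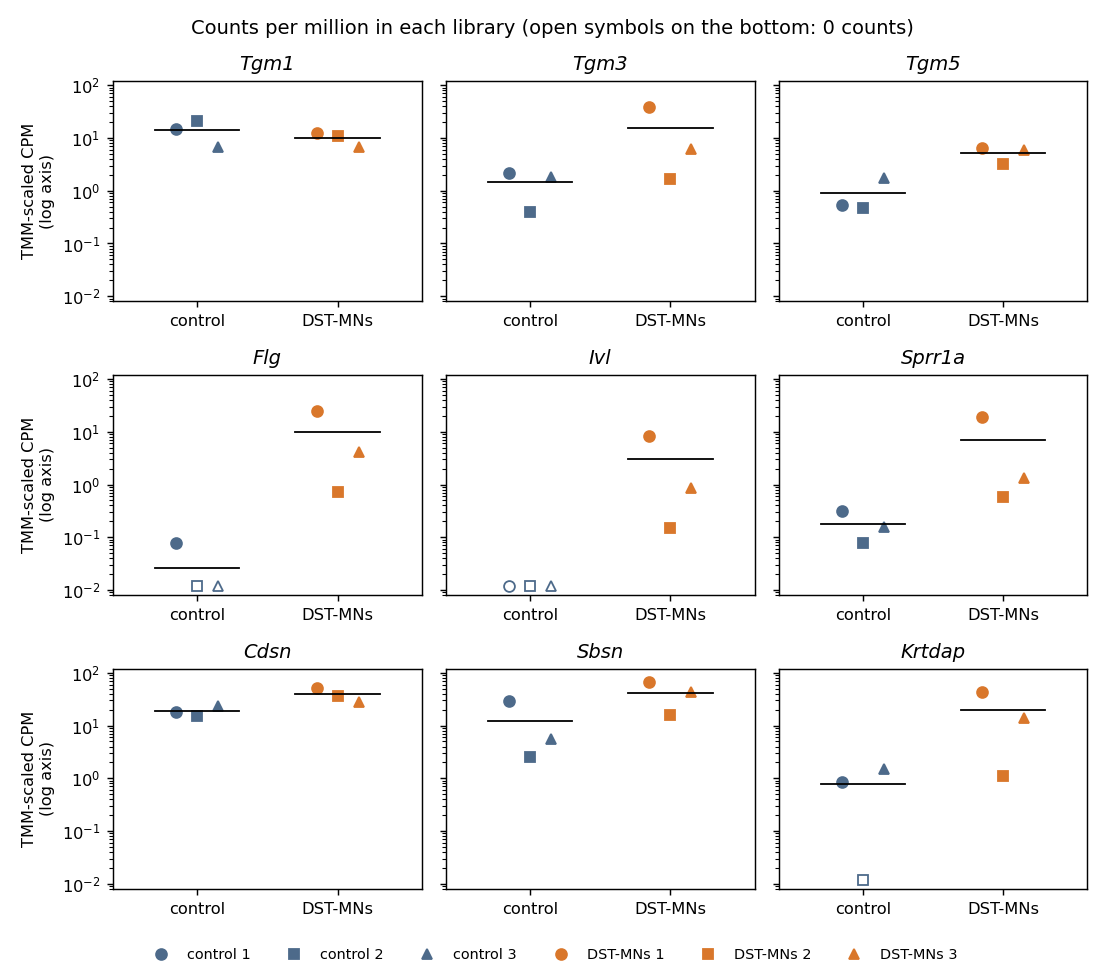
Level of each of the 9 genes in TMM-scaled CPM on a log axis, with 1 symbol per library, group means as horizontal lines and open symbols for libraries with 0 counts. DST-MNs 1 was the highest library for 8 of the 9 genes, the exception being Tgm1, whose highest library was control 2 at 20.7 CPM.

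The upstream sequences of 4 of the genes are shown. These are the 3 that hold a motif of AP-1 factors and, beside them, Tgm1, which lacks it. The groups overlapped for Tgm1, and also for Krtdap and Sbsn, which hold the motif. The choice was made for the motif, and Flg, Ivl, Tgm3, Tgm5 and Cdsn, whose means were higher after treatment, lack it too. Each is the 250 bases before the start of transcription in RefSeq on the build GRCr8, which is not the build of the counts, read 5′ to 3′ on the strand of the gene. Capitals mark TGANTCA, the core letters bound by AP-1 factors, which reads the same on both strands. The windows are chr1:95165612-95165861 (plus strand) for Krtdap, chr1:95128731-95128980 (plus strand) for the second of 2 starts of Sbsn, chr2:180752626-180752875 (minus strand) for Sprr1a and chr15:33174268-33174517 (minus strand) for Tgm1.
Krtdap: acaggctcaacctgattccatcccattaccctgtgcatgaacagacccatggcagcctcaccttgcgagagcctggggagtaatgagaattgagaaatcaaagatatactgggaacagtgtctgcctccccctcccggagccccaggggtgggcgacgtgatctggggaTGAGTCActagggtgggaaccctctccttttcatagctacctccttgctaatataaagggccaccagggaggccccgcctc
Sbsn: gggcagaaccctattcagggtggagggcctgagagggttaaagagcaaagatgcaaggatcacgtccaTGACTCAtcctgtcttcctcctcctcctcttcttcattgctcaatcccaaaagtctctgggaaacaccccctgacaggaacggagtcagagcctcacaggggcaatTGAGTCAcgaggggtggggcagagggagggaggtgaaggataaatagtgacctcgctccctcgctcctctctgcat
Sprr1a: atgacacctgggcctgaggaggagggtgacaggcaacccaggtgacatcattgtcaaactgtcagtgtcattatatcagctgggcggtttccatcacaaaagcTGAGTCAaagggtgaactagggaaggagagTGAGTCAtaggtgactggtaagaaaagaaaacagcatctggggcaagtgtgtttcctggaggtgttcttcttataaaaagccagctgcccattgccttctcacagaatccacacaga
Tgm1: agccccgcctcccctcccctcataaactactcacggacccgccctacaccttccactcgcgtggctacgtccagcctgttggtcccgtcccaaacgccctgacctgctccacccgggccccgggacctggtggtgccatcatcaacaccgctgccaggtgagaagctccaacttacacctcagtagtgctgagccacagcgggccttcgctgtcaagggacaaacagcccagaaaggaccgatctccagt
Krtdap had 1 match, beginning 81 bases before the start, Sbsn had 2, at 76 and 182 bases, and Sprr1a had 2, at 117 and 147 bases. All 9 genes matched the promoter table, with 10 windows in all, and the motif was in 3 of the 10 windows. It was in 6.34% of 33465 promoters of the same length, and at least 2 matches were in 0.311%. The TATA box TATAAA, searched on the gene's strand, was in the windows of Flg, Krtdap, Sprr1a and Tgm3 and in 8.06% of all. The Grainyhead-like letters AACNGGTT (1.76% of all) and the Krüppel-like box CCACACCC (2.84% of all), searched on both strands, were in none of the 10. A match in letters is a description and not a bound site.

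The epidermal transglutaminases did not share 1 pattern. Tgm1, the membrane-anchored enzyme of the granular layer, had 191, 266 and 85 counts in controls 1, 2 and 3 against 181, 146 and 84 in DST-MNs 1, 2 and 3. The groups overlapped, and the highest library was a control. Its mean was 14.0 ± 7.05 CPM in controls and 9.92 ± 3.01 CPM after treatment (SD, n = 3), a log2 difference of -0.50 with a 95% interval of -1.54 to 0.55 (adjusted p = 0.608, edgeR). That interval allows for a fall, no difference or a small increase. Control 2, which held the least basal keratin, had the highest Tgm1.

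Tgm3, a transglutaminase of the upper epidermis and of the hair follicle that needs proteolytic activation, had 28, 5 and 23 counts in the controls against 560, 23 and 77 in DST-MNs 1, 2 and 3. DST-MNs 2 lay among the controls, and DST-MNs 1 held 83.3% of the summed treated CPM. The log2 difference was 3.41 (SE 1.20, adjusted p = 0.236, edgeR), and 1.41 without DST-MNs 1. The follicle genes Krt71, an inner root sheath keratin, and Tchh, trichohyalin, a substrate of Tgm3, also peaked there, at 6763 and 5341 counts in DST-MNs 1 and at most 84 and 93 in any other library. Whether the Tgm3 counts of that library come from follicle or from epidermis was not tested. A non-coding gene overlaps Tgm3 in the annotation, so its reads may be counted with it.

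Tgm5, another epidermal transglutaminase, had few counts, and its treated values spread less than those of Tgm3. It had 7, 6 and 22 counts in the controls and 94, 44 and 76 after treatment, so that each treated library was above each control. Its mean was 0.906 ± 0.698 CPM in controls and 5.22 ± 1.74 CPM after treatment (SD, n = 3). The log2 difference was 2.52 (SE 0.58, 95% interval 1.14 to 3.89, adjusted p = 0.128, edgeR) and 2.33 without DST-MNs 1. With 1 library left out in turn it ran from 2.20 to 3.35.

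On the TPM scale, which corrects for gene length, Tgm1 made up 81.4%, 94.0% and 55.8% of the summed level of Tgm1, Tgm3 and Tgm5 in controls 1, 2 and 3. In DST-MNs 1, 2 and 3 its share was 18.3%, 58.1% and 24.8%. Tgm3 was the largest in DST-MNs 1 at 24.1 TPM (64.3%), and Tgm5 led with 5.24 TPM (45.7%) in the treated library 3. The summed TPM of the trio was 8.51 and 5.72 in controls 1 and 3 and 37.5, 9.87 and 11.5 after treatment, with control 2 just above DST-MNs 2. The share of Tgm1 in DST-MNs 2 was above that in control 3, so the groups overlapped, and no test was made on these shares.

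Of the 5 other transglutaminase genes listed, 2 were tested and 0 passed. Tgm2, the widespread tissue enzyme of fibroblasts, macrophages and endothelium, was the most abundant of the family at 73.3 to 104 TPM in controls and 70.4 to 80.9 TPM after treatment (log2 difference -0.45, SE 0.17, adjusted p = 0.264, edgeR). F13a1, the A chain of clotting factor XIII, had a log2 difference of 0.44 (SE 0.35), with its highest level, 27.1 TPM, in DST-MNs 3. Tgm6, the direct neighbour of Tgm3 in the annotation, had 5, 1 and 0 counts in the controls and 132, 10 and 9 after treatment, too few in most libraries to be tested. Tgm7, the neighbour of Tgm5, had 4, 3 and 1 counts in the controls and 11, 8 and 9 after treatment, also too few to be tested. Tgm4, the prostate enzyme, had 0 counts in all 6 libraries.

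The precursor genes Ivl, Flg and Sprr1a were nearly silent in the controls. Ivl, involucrin, one of the earliest proteins cross-linked into the envelope, had 0 counts in all 3 controls and 121, 2 and 11 counts in DST-MNs 1, 2 and 3. All treated libraries were above the controls, yet DST-MNs 2 only by 2 reads. Pooled over the group, the treated level was at least 42.2-fold higher than a floor of 3 counts for the controls, and at least 6.36-fold higher without DST-MNs 1. Ivl had too few counts for the main test, and with no count filter its adjusted p was 0.236 (edgeR, where 0.569% of genes passed).

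Flg, filaggrin, had 1, 0 and 0 counts in the controls and 364, 10 and 52 after treatment. Each treated library was above every control. Pooled and scaled, treated counts were 403 times the control counts (95% interval 71.9 to 16000), and 91.0 times (15.7 to 3650) without DST-MNs 1. Such intervals, like the floor, allow for counting error and nothing else. The test that includes the spread between libraries gave an adjusted p of 0.119 (edgeR). With 1 library left out in turn the adjusted p ran from 0.0716 to 0.376.

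Sprr1a, a small proline-rich protein that bridges other envelope proteins and is also induced in stressed epithelium, had 4, 1 and 2 counts in the controls and 272, 8 and 17 after treatment. The groups did not overlap, although DST-MNs 2 exceeded control 1 by 4 reads only. DST-MNs 1 held 90.7% of the summed treated CPM. With no count filter the log2 difference was 5.16 (SE 1.48, adjusted p = 0.19, edgeR), and 2.34 without DST-MNs 1. The pooled ratio of scaled counts was 40.1 (19.2 to 101), against 5.24 (2.20 to 14.4) without that library. Sprr1a and Ivl had the most similar patterns of any 2 of the 9 genes, with a root mean square difference of 0.375 log2 units between their deviations over the 6 libraries.

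Cdsn, corneodesmosin, showed the smallest log2 difference of the 8 genes whose mean was higher after treatment. It had 229, 199 and 298 counts in the controls against 754, 498 and 355 in DST-MNs 1, 2 and 3. Every treated library exceeded every control, with DST-MNs 3 the closest to them. The mean was 18.8 ± 3.97 CPM in controls and 38.8 ± 12.2 CPM after treatment (SD, n = 3), a 2.07-fold difference (log2 difference 1.05, SE 0.26, 95% interval 0.42 to 1.68, adjusted p = 0.148, edgeR). With 1 library left out the log2 difference ran from 0.77 to 1.24. A non-coding gene overlaps Cdsn in the annotation, and the counting is not stated to use strand, so reads of that gene cannot be told apart from those of Cdsn.

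Sbsn, suprabasin, a secreted protein of the suprabasal layers, was the most abundant of the 9 by TPM in 4 of the 6 libraries. It stood at 60.0, 5.88 and 12.2 TPM in controls 1, 2 and 3 and at 142, 37.4 and 95.5 TPM in DST-MNs 1, 2 and 3. Control 1 was above DST-MNs 2, so the groups overlapped. The log2 difference was 1.75 (SE 0.91, adjusted p = 0.389, edgeR). With 1 library left out in turn it ran from 1.24 without DST-MNs 1 (adjusted p = 0.555, edgeR) to 3.33 without control 1 (adjusted p = 0.0734, edgeR). Gapdhs, a glycolytic gene of sperm, overlaps the annotated Sbsn gene, which makes its counts less certain.

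Krtdap, keratinocyte differentiation-associated protein, is a small secreted peptide of stratified epithelium. It had 11, 0 and 19 counts in the controls and 633, 15 and 178 after treatment. DST-MNs 2 lay between controls 1 and 3. It was the most abundant of the 9 in DST-MNs 1, at 231 TPM or 47.2% of their sum, and it was at 5.40 TPM in DST-MNs 2. The log2 difference was 4.64 (SE 1.45, 95% interval 1.17 to 8.11, adjusted p = 0.199, edgeR), and 3.26 without DST-MNs 1. Dmkn, dermokine, the secreted epidermal protein encoded between Sbsn and Krtdap, stood at 2.47, 0.155 and 4.20 CPM in the controls and at 89.5, 16.8 and 35.3 CPM after treatment (log2 difference 4.37, SE 0.98, adjusted p = 0.122). The groups did not overlap for Dmkn, as they did for Sbsn and Krtdap, and a difference between these genes was not tested.

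Basal keratin RNA varied widely between libraries, so each gene was also set against the summed CPM of Krt5 and Krt14 in its own library, as a log2 ratio with no test. Flg had a mean log2 ratio of -8.64 in controls and -7.67 after treatment, and Krtdap one of -6.78 and -6.66. Control ratios of Flg and Ivl, those of Sprr1a in controls 2 and 3, that of Krtdap in control 2 and that of Ivl in DST-MNs 2 rest on at most 2 reads and depend on the prior count. The Tgm1 ratio was -3.72, 0.91 and -4.46 in controls 1, 2 and 3 against -8.07, -4.20 and -7.44 in DST-MNs 1, 2 and 3. The mean Tgm1 ratio differed by -4.14 log2 units between treated and control libraries, and the mean Cdsn ratio by -2.73, while the groups overlapped for both. Control 2 weighed on both: without it the difference was -2.48 for Tgm1 and -1.55 for Cdsn. In control 2 the CPM of Tgm1 and of Cdsn were above the summed CPM of both keratins. The differences of the other 5 genes ran from -1.54 for Sbsn to -0.57 for Ivl, and the median over the 9 was -1.25. Without control 2 that median was -0.25, the difference was 2.19 for Flg, and it turned from -0.57 to 0.75 for Ivl and from -0.64 to 0.44 for Sprr1a.

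**Figure D2:**
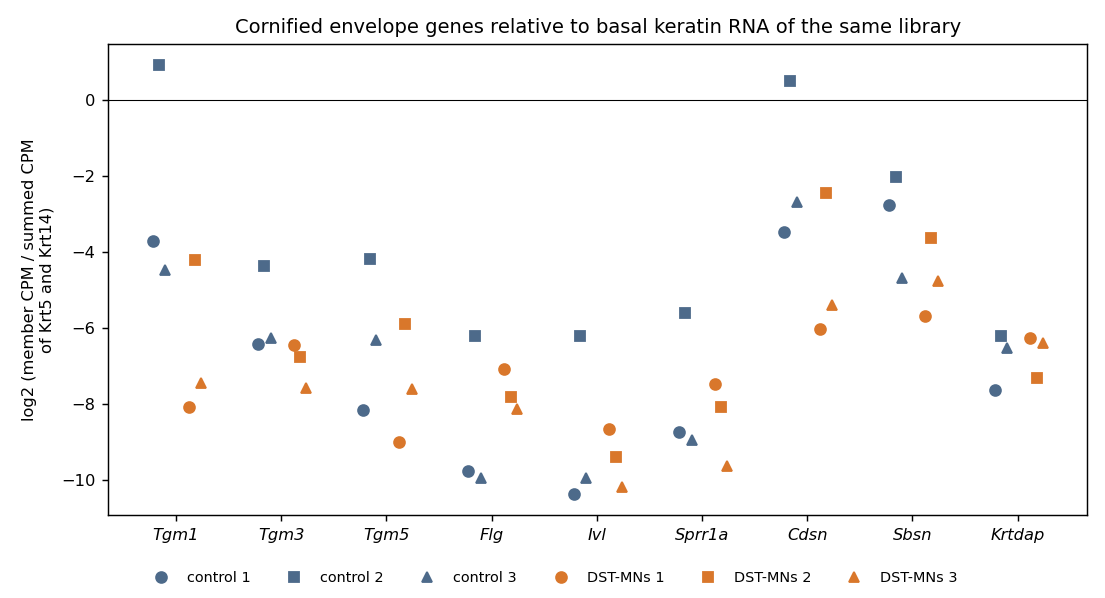
Log2 ratio of each gene's CPM (prior count of 2) to the summed CPM of Krt5 and Krt14 in the same library, with 1 symbol per library. Tgm1 and Cdsn in control 2 are above 0 (0.91 and 0.49), and the treated and control symbols of Krtdap, at -7.62 to -6.20, are mixed.

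Other precursors of the envelope differed widely among themselves. Of 28 listed, 23 were in the table, 10 were tested and 0 passed, with 5 at an unadjusted p below 0.05 and higher (9.80% of all genes, for this and the next lists), a median log2 difference of 1.44 and 0.00 over all genes tested. Evpl, envoplakin, a plakin that starts the scaffold under the membrane, had a log2 difference of 4.12 (SE 0.96, adjusted p = 0.131, edgeR). Cst6, cystatin M/E, an inhibitor of cathepsins that keeps Tgm3 activation in check, stood at 2.16, 0 and 1.48 CPM in controls and 66.0, 28.3 and 22.3 CPM after treatment (log2 difference 4.99, SE 0.93, adjusted p = 0.0823). Lypd3, a membrane protein of suprabasal keratinocytes, had a log2 difference of 3.99 (SE 0.84). The plakin Ppl, periplakin, and Scel, sciellin, both precursors of stratified epithelium, had smaller log2 differences of 1.22 and 1.66. Cnfn, cornifelin, an epidermal envelope protein, had overlapping groups at 19.4, 12.7 and 14.6 CPM in controls and 13.5, 22.7 and 20.3 CPM after treatment (log2 difference 0.28, edgeR adjusted p = 0.624). The annexin Anxa1 and the S100 proteins S100a10 and S100a11, which are envelope components but are made by many cells, had log2 differences of -0.30, -0.19 and -0.43.

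Partners of the envelope on the cell surface and inside the cell included 2 genes that passed the test, both higher, where 0.658% of all genes passed and were higher. Of the 5 corneodesmosome genes all were tested and all were higher, 5 of them at an unadjusted p below 0.05 (9.80% of all genes were higher at that p) and 0 past the adjusted threshold, with a median log2 difference of 4.24. The desmosomal cadherin Dsc1, which lies in the uppermost layers, stood at 0.386, 0.0776 and 0.389 CPM in controls and at 28.4, 0.734 and 4.16 CPM after treatment. The 12 genes that process filaggrin and the corneodesmosome include Cst6, which is also counted among the precursors above. Of these 12, 8 were tested, the median was 4.40, 6 had an unadjusted p below 0.05 and 1 rose. That gene was Asprv1, the retroviral-like protease that trims profilaggrin, at 1.62, 0.155 and 1.09 CPM in controls and 59.6, 47.5 and 21.4 CPM after treatment (log2 difference 5.47, SE 0.70, adjusted p = 0.0281, edgeR). Its substrate Flg stood at 25.0, 0.734 and 4.08 CPM in the same treated libraries, so Asprv1 in DST-MNs 2 was near its other treated values while Flg was not. Asprv1 kept its call in 1 of 6 cases with a library left out, without control 1. Its adjusted p was 0.0547 and 0.119 without controls 2 and 3, and 0.0999, 0.0784 and 0.086 without DST-MNs 1, 2 and 3.

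Of 8 genes of the lipid layer bound to the envelope, 5 were tested, with a median log2 difference of 2.03. Of these 5, 4 had an unadjusted p below 0.05 and 1 rose, where 0.658% of all genes rose. Cers3, the ceramide synthase that makes the ultra-long ceramides attached to involucrin, rose from 0.155, 0.0776 and 0.156 CPM in the controls to 12.5, 8.73 and 7.30 CPM after treatment (log2 difference 6.10, SE 0.42, adjusted p = 0.0053, edgeR). It passed in all 6 fits that omit a library, with adjusted p of 0.0141 to 0.0351. Cers3 is also expressed in sebaceous glands. Their 9 listed marker genes summed to 105, 25.2 and 48.5 CPM in the controls and 699, 642 and 716 CPM after treatment. Of these 9, 3 rose, against 0.658% of all genes, and the part of sebaceous glands in the Cers3 result was not tested. Abca12, the transporter that loads lamellar bodies, had 0.0773 CPM in control 1, none in the other controls, and 8.19, 0.734 and 2.28 CPM after treatment. The suprabasal keratins Krt1 and Krt10, of the layers above the basal one, stood at 1.81 ± 1.41 and 4.71 ± 2.18 CPM in controls (SD, n = 3). After treatment they stood at 102 ± 130 and 82.7 ± 105 CPM (SD, n = 3, adjusted p = 0.148 and 0.184, edgeR). In DST-MNs 1, 2 and 3 Krt1 was at 251, 5.65 and 50.8 CPM and Krt10 at 202, 5.36 and 40.7 CPM. The groups overlapped for Krt10, whose controls ran from 2.33 to 6.61 CPM, and not for Krt1.

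**Figure D3:**
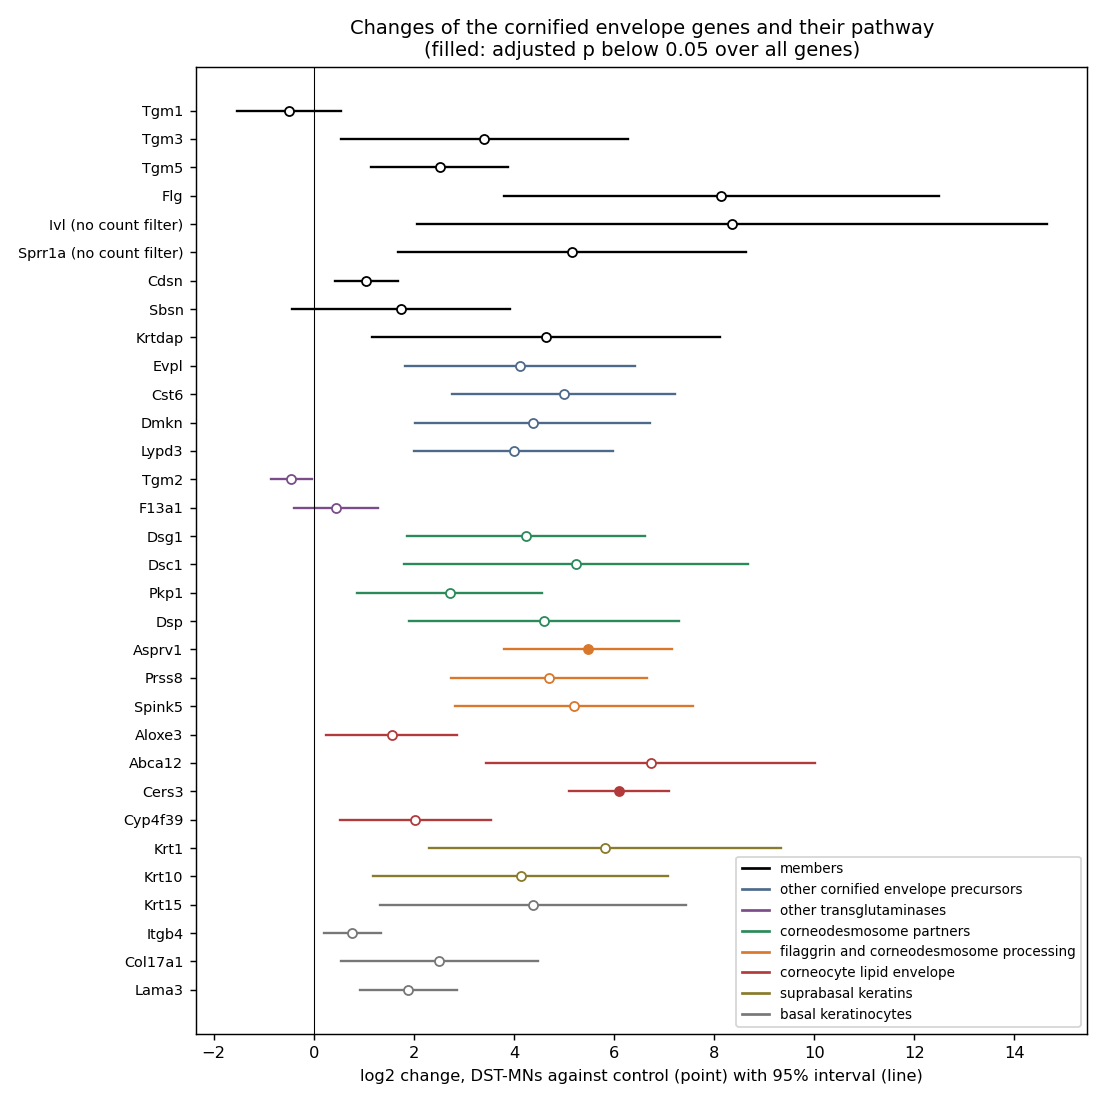
Fitted log2 difference of DST-MNs against control with its 95% interval for the 9 genes (black) and for named genes of 7 related lists (colours), filled where the adjusted p is below 0.05. Asprv1 and Cers3 are filled, Tgm1 lies at -0.50, and the fits of Flg, Ivl and Abca12 rest on at most 1 control read and are not bounds.

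Flg, Ivl and Sprr1a lie in one stretch of chromosome 2, the epidermal differentiation complex, which also holds loricrin, the late cornified envelope genes and trichohyalin. The annotation on GRCr8 lists 52 protein-coding genes from Loricrin to Tchh, and 40 of them were in the table. The stretch was chosen after its values were seen, and its many near-identical copies make single counts uncertain. Apart from the 3 members, the 37 genes together had 112, 29 and 35 counts in controls 1, 2 and 3 against 6322, 38 and 140 in DST-MNs 1, 2 and 3. Tchh alone made up 5341 of the counts in DST-MNs 1. In 27 of the 37 genes DST-MNs 1 was the highest library, and 7 had 0 counts throughout. Loricrin, the most abundant envelope protein of mature epidermis, had 1, 0 and 2 counts in controls and 240, 3 and 37 after treatment. Crnn, cornulin, had 1, 0 and 0 counts in controls and 70, 0 and 0 after treatment. Without Tchh and the 3 members, the other 36 genes summed to 19, 5 and 19 counts in controls 1, 2 and 3 against 981, 19 and 121 counts in DST-MNs 1, 2 and 3. DST-MNs 1 and 3 then exceeded every control, and DST-MNs 2 equalled controls 1 and 3.

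**Figure D4:**
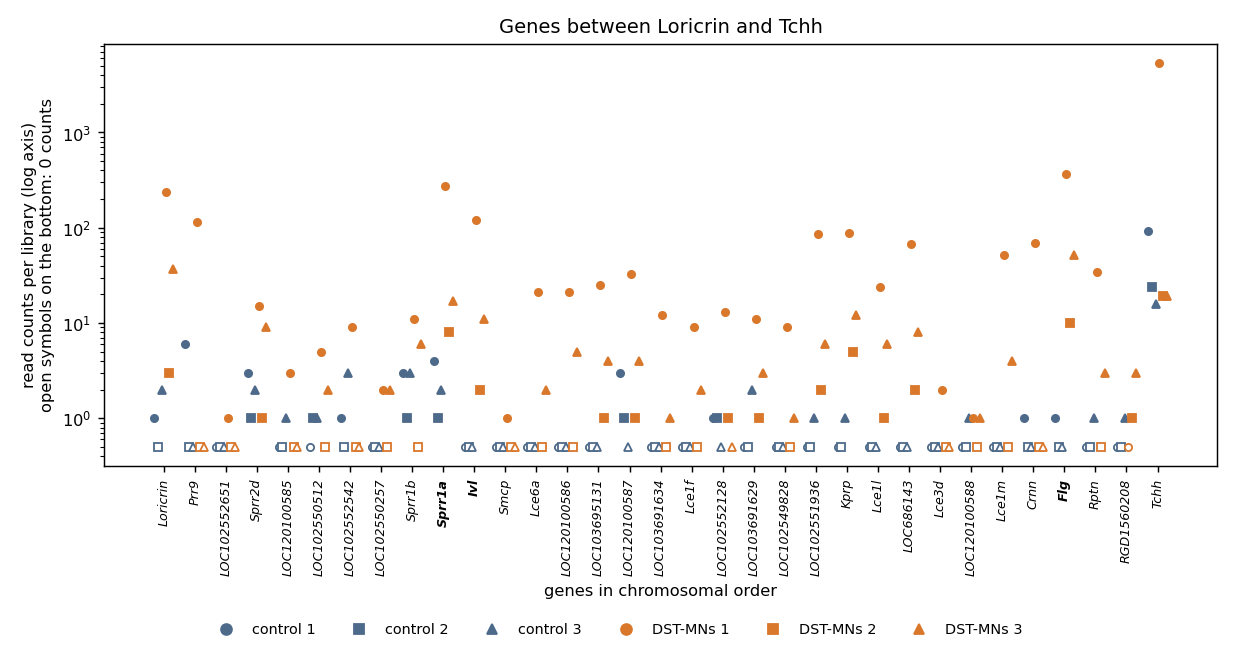
Read counts per library on a log axis for the genes from Loricrin to Tchh with at least 1 count, in chromosomal order, with 1 symbol per library and open symbols for 0 counts. Sprr1a, Ivl and Flg (bold) reach 272, 121 and 364 counts in DST-MNs 1, and most of their neighbours also have their highest count there.

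The genes whose pattern was most like that of the envelope genes were searched among 12731 genes, by the root mean square difference over the 6 libraries between a gene's log2 CPM deviations and the median deviations of the 7 tested envelope genes. Those medians were -0.57, -2.56 and -0.72 in controls 1, 2 and 3 against 1.99, -0.04 and 1.39 in DST-MNs 1, 2 and 3. The nearest was Tbx1, a T-box transcription factor, at 0.305 log2 units, followed by Lamb3, the laminin β3 chain of the epidermal basement membrane, at 0.345. Mroh6 (0.424), the carboxylesterase Ces2g (0.432) and Atp6v1c2, a subunit of the vacuolar proton pump (0.443), came next. Among the envelope genes themselves, Sbsn (0.651) and Tgm5 (0.655) were nearest to the median pattern and Tgm1 (1.86) was farthest. All of these helped to set that median, so their distances are not independent of it. The search covers 6 libraries and is a description.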

How the data were processed

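Messenger RNA of 6 wound samples was sequenced in read pairs on a DNBSEQ-T7, per the labels' protocols. The deposited estimated counts are unscaled, per the file headers, and 90.5% to 91.4% of them were whole. TPM values, per the file headers, were used for levels between genes, and the deposited FPKM and normalised counts (a signal: counts divided by 1 factor per library, per the file headers) were not used. The submitters' processing notes name the build mRatBN 7.2. No aligner, counter or strand setting was given in the sources used here.

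Counts were rounded, filtered with filterByExpr (minimum count 10, 14427 genes left), scaled with TMM and tested with the quasi-likelihood test of edgeR 4.0.16 in R 4.3.3, with Benjamini-Hochberg adjustment over all genes at 0.05. The standard error is the log2 difference divided by the square root of F. Log2 CPM used a prior count of 2, and a floor of 3 counts stands for 0 counts in a group. Intervals are at 95%, and the labels name no molecular identifiers. Alternatives were DESeq2 1.42.0, limma-voom (limma 3.58.1), other scalings and filters, the replicate block and each library left out. Counts of the 9 genes were whole in all libraries. The 9 genes and the lists were chosen with earlier results of these data known. Of 132 list entries, 122 matched by symbol, 2 through the RefSeq table (GRCr8) and 8 not at all. Named were the 9 genes, in each list the genes past the threshold and up to 4 with the smallest p (not all are printed), the 5 most like the 9 in pattern, and Krt1, Krt5, Krt10, Krt14 and Krt71. Tgm6, Tgm7, Tgm4, Klf4, Ppl, Scel, Cnfn, Col1a1, Gapdhs, Anxa1, S100a10, S100a11, Loricrin, Crnn, Tchh and Znf750 were added after their values were seen. So were the promoter motifs. Figures were drawn with matplotlib 3.10.9.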

Additional observations from a re-analysis of the deposited data

How the results depend on the processing

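Of the 9 genes, 0 passed with the size factors of DESeq2, upper-quartile factors, total counts or limma-voom (7 of the 9 tested in each). The number was also 0 with no count filter (9 tested) and with a minimum of 10 counts per library (3 tested). With any 1 library left out it was 0 to 0 in 6 cases (7 or 9 tested). The Wald test of DESeq2 called 4, with adjusted p of 1.35e-05 for Flg, 0.00302 for Tgm5, 0.0112 for Cdsn and 0.0121 for Tgm3, and the replicate block called 1, Flg (adjusted p = 0.026). Whether the replicate numbers pair the libraries cannot be told from 3 libraries per group. The correlations of same-numbered deviations from group means were -0.02, 0.10 and 0.11. Control 1 was nearest to DST-MNs 2 (0.05), while controls 2 and 3 were nearest to the treated library of the same number. With the block 123 genes changed in all. No log2 difference turned its direction in any alternative that was fitted for the gene. Ivl and Sprr1a were fitted only with no count filter, over all libraries and with 1 left out. The count over all genes, 112, was 38 with at least 10 counts in every library and 1018 with DESeq2. It ranged from 14 to 402 with 1 library left out, being 402, 34 and 53 without controls 1, 2 and 3 and 23, 34 and 14 without DST-MNs 1, 2 and 3. The median difference in ratio to the basal keratins, -1.25, was -1.25 against Krt1 and Krt10, -1.09 with a prior count of 0.5, -1.28 on log2(TPM + 0.1) and -1.34 to -0.25 with 1 library left out. Asprv1 lost its call with limma-voom (adjusted p = 0.0954) and with the block (0.05). Total counts as the scaling moved the median log2 difference of all genes from 0.004 to 0.122. The causes of these differences were not tested. Low counts limit Ivl, Sprr1a and Flg most. The fits of Ivl and Sprr1a with no filter, those of Asprv1 and Cers3 under the alternatives, and the sums without Tchh were added after seeing the data.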

Other observations

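Regulators of terminal differentiation did not move as 1 group. Of 12 listed, 11 were tested and 0 passed in edgeR after adjustment over all genes, with 7 at an unadjusted p below 0.05, 6 higher and 1 (Klf4) lower, where 16.7% of all genes reached that p, and a median log2 difference of 0.81. Grhl1, a Grainyhead-like factor of desmosomal genes, stood at 2.16, 0.543 and 2.10 CPM in controls 1, 2 and 3 against 49.5, 8.73 and 9.58 CPM in DST-MNs 1, 2 and 3 (log2 difference 3.81, SE 0.89, adjusted p = 0.131, edgeR). Ovol1, a zinc finger factor that limits keratinocyte growth, had a log2 difference of 3.01 (SE 0.84), and Gata3, a factor of epidermis, inner root sheath and lymphocytes, one of 3.81 (SE 0.97). Klf4, a barrier factor that fibroblasts and endothelium also express, pointed the other way, at 127, 151 and 188 CPM in controls and 91.0, 76.5 and 136 CPM after treatment (log2 difference -0.61, adjusted p = 0.287, edgeR). Cebpa, which is expressed in suprabasal keratinocytes, sebocytes and adipocytes, was at 43.4, 43.5 and 34.1 CPM in controls and 93.5, 62.9 and 55.8 CPM after treatment (log2 difference 0.81, SE 0.22, adjusted p = 0.158), with groups that did not overlap.

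Of the keratins listed as wound-edge keratins, all 3 in the table were tested and 0 passed. Whether their counts come from epidermis or from follicle was not tested. Krt17 stood at 7.65, 1.09 and 12.9 CPM in the controls and 375, 18.9 and 85.1 CPM after treatment, with no overlap of the groups (log2 difference 4.47, SE 1.27, edgeR adjusted p = 0.169). Krt6a stood at 16.7, 1.63 and 16.8 CPM in controls 1, 2 and 3 against 368, 4.26 and 141 CPM in DST-MNs 1, 2 and 3, and Krt16 had 871, 0 and 499 counts in the treated libraries against 40, 6 and 47 in the controls. DST-MNs 2 was thus the 1 library with 0 counts of Krt16. Krt17, Asprv1 and, of the 9 genes, Flg, Ivl, Tgm5, Sprr1a and Cdsn were above every control there. Krt6a, Krt10, Tgm1, Tgm3, Sbsn and Krtdap were not.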
